A study of Sus scrofa with 30 samples.

Results

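The miR-99, miR-100 and miR-125 family was followed in small RNA libraries of the porcine endometrium, the inner lining of the uterus, by taking every annotated sequence whose name carries the root mir-99a, mir-99b, mir-100, mir-125a or mir-125b. The rule took 43 of the 873 annotated sequences, which fall into 6 of the 237 miRNA arms (an arm is the mature product of 1 side of a hairpin). The libraries came from 30 Hampshire x Duroc crossbred gilts aged 7 to 8 months from 1 herd, with 1 library per animal. Of these, 16 were pregnant after insemination and carried conceptuses, with 5 animals on D12 (PD12), 5 on D16 (PD16) and 6 on D20 (PD20), and 14 were in the estrous cycle, with 4 animals on D12 (CD12), 5 on D16 (CD16) and 5 on D20 (CD20). The labels and the methods of the article name no treatment other than insemination, which is given in the methods. Tissue was taken post mortem, and conceptuses were flushed out on D12 and D16 and dissected away on D20. The pregnant D20 tissue was taken from implantation sites. The sample is whole endometrium, so a lower share of a cell type and less RNA per cell cannot be told apart in it. Between 2029729 and 6402731 reads were deposited per library (median 3111079), and between 75.32% and 87.17% of them matched the annotated list. The family took between 0.44% and 9.566% of the annotated reads of a library (median 2.7975%).

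MiR-100 and let-7 are among the oldest miRNAs of animals, and members of this family lie next to let-7 genes in shared host transcripts. In mammals, miR-99a lies with let-7c and a copy of miR-125b, miR-100 lies with a copy of let-7a and the other copy of miR-125b, and miR-99b lies with let-7e and miR-125a. A cluster of this kind is transcribed as a unit and cut into separate mature miRNAs, each of which then acts on mRNAs that pair with its seed, the bases near the 5′ end. The miR-99 group is known for targets of the mTOR growth pathway, miR-125 for targets in cell survival and blood cell development, and let-7 for holding back growth-promoting genes. The design therefore allows 2 questions: whether the family differed by day or by pregnancy, and whether the members of a host cluster rose and fell together from animal to animal. The RefSeq gene table of Sscrofa11.1 places MIR99A beside MIRLET7C, MIR99B beside MIRLET7E and MIR125A, and MIR100 beside MIRLET7A-1 and MIR125B-1. The place of miR-125b-2 in the cluster of miR-99a is taken here from the arrangement in mammals and not from that table.

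The mature sequences fall into 2 seed groups, with another seed on the opposite arm of the miR-125b-2 hairpin, and the canonical sequence (the miRBase entry) of each is shown so that the shared seed can be seen. Letters are those of the deposited reads (T for U), 5′ to 3′, and capitals mark bases 2 to 8.
miR-99a: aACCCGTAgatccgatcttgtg
miR-100: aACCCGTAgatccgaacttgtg
miR-99b: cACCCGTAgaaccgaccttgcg
miR-125b: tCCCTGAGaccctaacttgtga
miR-125a: tCCCTGAGaccctttaacctgtg
miR-125b-2 3p arm: aCAAGTCAggctcttgggacc
No canonical sequence was listed for the 3p arm, so its most abundant sequence is shown and serves as its reference. Counted from 1 at the 5′ end of the first sequence named, miR-99a and miR-100 differed by T16A alone, and miR-99a and miR-99b by A1C, T11A, T16C and T21C. All of these lie outside the seed. MiR-125b and miR-125a shared their first 13 bases and differed at 7 of the 22 compared, from A14T onwards. The mature miR-125b is made from both hairpin copies, so its reads cannot be divided between the 2 host clusters. Nor can let-7a be assigned to the cluster of miR-100 alone, since the table also places it at another locus (MIRLET7A-2). Only the 3p arm carries the name of a single copy.

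The canonical sequence was often not the form that was read most. For miR-99a and miR-100 it was the isomiR that lacks the final base (3′ DEL 1), and the forms that carried most reads of these arms are shown with the seed in capitals.
miR-99a 3′ DEL 1: aACCCGTAgatccgatcttgt
miR-100 3′ DEL 1: aACCCGTAgatccgaacttgt
miR-100 3′ ADD 1 (GT): aACCCGTAgatccgaacttgtgt
miR-100 3′ ADD 1 (GC): aACCCGTAgatccgaacttgtgc
miR-125a 3′ DEL 1: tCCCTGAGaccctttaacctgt
MiR-99a 3′ DEL 1 held 93.56% of the annotated reads of its arm over all libraries, against 2.464% for canonical miR-99a. MiR-100 was spread over more lengths, with 58.34% in the 3′ DEL 1 form, 21.14% in the 3′ ADD 1 form that ends in GT and 14.74% in the canonical form. MiR-99b kept 60.47% of its reads in the canonical form and miR-125b 52.65%, while miR-125a had 31.22% there and 57.7% in its 3′ DEL 1 form.

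The miR-99 seed group was far more abundant than the miR-125 group. Levels are given as CPM, that is, read counts scaled to the annotated reads of the library after TMM, summed over the annotated sequences of an arm. Over the 30 libraries miR-99a averaged 18541 CPM and ranked 9th of the 168 arms with a mean of at least 10 CPM, and miR-100 averaged 12181 CPM and ranked 12th. MiR-99b averaged 2956 CPM, the 3p arm 438.7 CPM, miR-125b 244.7 CPM and miR-125a 166.3 CPM. Several products of 1 host cluster stood apart in level. In every library the reads of miR-99a outnumbered those of the 3p arm, by 5.517 to 146 times (median 27.32), and miR-99b outnumbered miR-125a by 5.509 to 72.72 times (median 16.99). Against let-7 the ratio was 5.183 to 173.9 for miR-99a to let-7c (median 34.1), 1.021 to 24.75 for miR-99b to let-7e (median 4.511) and 0.3037 to 2.723 for miR-100 to let-7a (median 0.6781).

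Of the 30 libraries, 3 stood apart from the rest. In PD20 replicate 1, miR-143 and miR-145, markers of stroma and smooth muscle, summed to 636004 CPM (median of all libraries 103373), and the muscle miRNAs miR-1, miR-206 and miR-499 to 40186 CPM (median 2109). In CD16 replicate 3 and PD20 replicate 3, reads that end in C in place of a final T were almost missing. For miR-99a 3′ DEL 1 such reads made up 0.06178% and 0.09326% in these libraries, against 10.73% to 21.28% in the other 28. The same was seen over 72 abundant annotated sequences that end in T, whose median share was 0.09998% and 0.1972% in these libraries and 10.09% to 20.39% in the others. The member miR-100 3′ ADD 1 (GC) differs from the GT form by just this base, and its share of both forms was 13.88% to 27.18% in 28 libraries and 0.3877% and 0.2373% in these 2, so its reads cannot be told apart from such ends of the GT form.

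MiR-99a varied more between animals of a group than between groups. In PD12 the levels were 7180, 15186, 3334, 29628 and 5382 CPM, in PD16 they were 43584, 6847, 18677, 4328 and 12267 CPM, and in PD20 they ran from 3896 to 42895 CPM with a median of 11554. In CD12 the levels were 24422, 2245, 4936 and 8981 CPM. In CD16 they were 25448, 20117, 28472, 47339 and 39525 CPM, and in CD20 they were 20872, 20958, 57994, 7604 and 12575 CPM. The lowest CD16 library lay at 20117 CPM, while each of the other groups held a library at or under 7604 CPM. CD16 still overlapped with each of the other groups. The means fell in the order CD16 (32180 ± 11049, SD, n = 5), CD20 (24001 ± 19837, n = 5), PD16 (17140 ± 15776, n = 5), PD20 (14720 ± 14199, n = 6), PD12 (12142 ± 10758, n = 5) and CD12 (10146 ± 9912, n = 4). No neighbours in this order differed by more than their SD. The SD within groups on the log2 scale was 1.15, the 6th largest of 168 arms, whose median was 0.6274.

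MiR-100 followed a like order but over a narrower range. Its levels were 18321, 15425, 24000, 22104 and 14211 CPM in CD16 and 20611, 2342, 3633 and 10680 CPM in CD12. In PD16 they were 33422, 5746, 10002, 5277 and 10849 CPM, so that 4 of the 5 libraries lay under the lowest of CD16 and the fifth lay above its highest. Group means were 18812 ± 4202 CPM (CD16), 13483 ± 6198 (CD20), 13059 ± 11651 (PD16), 10342 ± 4501 (PD20), 9317 ± 8374 (CD12) and 7865 ± 5589 (PD12), as mean ± SD with n as above. Neighbours in this order differed by less than the larger of their SDs. MiR-99b had levels of 3221, 3677, 5035, 5838 and 4308 CPM in CD16, and of 5198, 1154, 3267, 1697 and 2539 CPM in PD16. Of the 5 PD16 libraries, 3 lay below all CD16 libraries, and 1 lay above 4 of them. PD20 had the lowest mean of miR-99b (1823 ± 810 CPM, n = 6), and CD16 the highest (4416 ± 1048, n = 5).

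The miR-125 arms were lower and steadier, and their order of groups was another. MiR-125b had its highest mean in PD16 (317.9 ± 69.6 CPM, SD, n = 5) and its lowest in CD12 (174.2 ± 102.3, n = 4), with levels of 255.2, 252.9, 384.5, 398 and 298.8 CPM in PD16 and 206, 83.02, 304.7 and 103.1 CPM in CD12. Only 1 CD12 library reached the PD16 range. MiR-125a was likewise highest in PD16 (219.3 ± 72.71, n = 5) and lowest in CD12 (127.4 ± 111, n = 4), and its highest library of all was CD16 replicate 5 with 425.9 CPM. The 3p arm had its highest mean in PD16 (515.4 ± 124.4, n = 5) and its lowest in CD20 (340.2 ± 130.5, n = 5). Its SD within groups on the log2 scale was 0.4135, and those of miR-125b and miR-125a were 0.5305 and 0.6952.

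**Figure D1:**
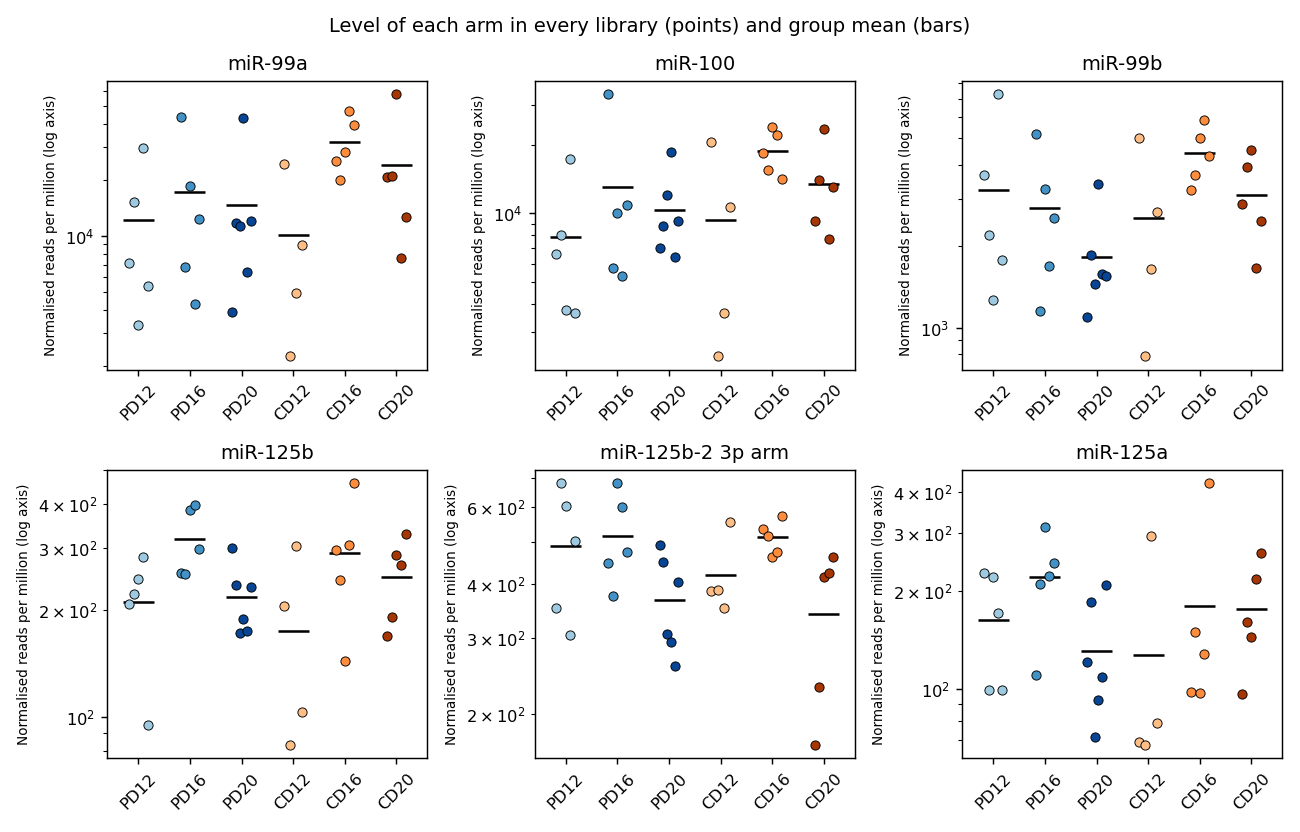
Level of the 6 arms in every library (CPM, log axis), with a point per library and a bar at the arithmetic mean of each of the 6 groups. MiR-99a, miR-100 and miR-99b spread over 25.83, 14.27 and 9.29 times between their lowest and highest library, and the 5 CD16 libraries lie close together in the upper part of that spread.

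The first question was whether the family differed by day or by pregnancy. A call needed a log2 fold change (log2FC) beyond 1 in either direction and, in the quasi-likelihood F-test of edgeR, a p under 0.05 after Benjamini-Hochberg adjustment. None of the 43 sequences and none of the 6 arms was called in any of the 7 comparisons. For D16 and D20 jointly against D12, the share called among all sequences was 0.802% in pregnancy and 0.458% in the cycle, and among all arms 3.38% and 2.95%. For D20 vs D16 it was 0.573% of sequences and 1.69% of arms in pregnancy, and 0.458% and 4.64% in the cycle. For pregnant vs cyclic animals it was 0% of sequences and 0% of arms on D12 and again on D16, and 1.49% of sequences and 8.02% of arms on D20. At an unadjusted p under 0.05 the members numbered 3 (PD16 and PD20 vs PD12), 8 (CD16 and CD20 vs CD12), 3 (PD20 vs PD16), 1 (CD20 vs CD16), 0 (PD12 vs CD12), 3 (PD16 vs CD16) and 3 (PD20 vs CD20) of 43. The share of all sequences with such a p was 18.67%, 23.94%, 14.2%, 21.19%, 6.078%, 10.89% and 28.52% in the same order, and the share of the members was below it in each comparison. Of the 6 arms, 1 had such a p on PD16 vs CD16 and 0 in the other comparisons, where the share of all arms was 21.1%, 22.78%, 16.88%, 24.89%, 7.627%, 9.322% and 27.85% in that order. The likelihood ratio test of edgeR and DESeq2 each called 1 member in CD16 and CD20 vs CD12 (among 79 and 87 of all 873 sequences), 1 in PD20 vs CD20 (among 124 and 131) and 0 in the other comparisons, and 0 arms of the family in all 7.

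In the cycle most sequences of the family had higher values on D16 and D20 than on D12, without passing the test. On CD16 vs CD12, 38 of 43 sequences had a positive log2FC with a median of 0.92, where the median of all 873 sequences was 0.03, and on CD20 vs CD12 also 38 did, with a median of 0.52 beside 0.09. These comparisons share the CD12 libraries. MiR-99a had the largest difference of the arms, with a log2FC of 1.55 (SE 0.63, 95% interval 0.25 to 2.86) on CD16 vs CD12 and 0.95 (SE 0.62) on CD20 vs CD12, and an adjusted p of 0.2225 in the joint edgeR test. CD12 replicate 1 made this value smaller, as its 24422 CPM stood above the 2245 to 8981 CPM of the other CD12 libraries. Without it the log2FC values were 2.57 and 1.97 with an adjusted p of 0.04791 in edgeR, where 14 of 237 arms were called. Each of the 14 libraries was left out in turn, and an arm of the family was called only without CD12 replicate 1. MiR-100 had a log2FC of 0.91 (SE 0.55) on CD16 vs CD12, miR-99b 0.71 (SE 0.47) and miR-125b 0.77 (SE 0.44). On CD20 vs CD12 the values of these arms were nearer to 0, at 0.28 (SE 0.54), 0.04 (SE 0.47) and 0.42 (SE 0.44), and that of the 3p arm was -0.41 (SE 0.39). These values depended on the scaling: with library size from all deposited reads the log2FC on CD20 vs CD12 was 1.64 for miR-99a, 0.93 for miR-100 and 0.68 for miR-99b, and all 6 arms were higher, the 3p arm included, while the median of all arms moved from 0.02 to 0.52. Marker miRNAs of cell types also differed between these groups. The endothelial miR-126 (the 1 marker listed) was at 2602 ± 778 CPM (SD, n = 4) on CD12, 3197 ± 610 (n = 5) on CD16 and 4604 ± 293 (n = 5) on CD20. The sum of the 6 epithelial miRNAs was 8686 ± 2059, 12826 ± 3477 and 7733 ± 2236 CPM, and that of the leukocyte miRNAs (3 of 4 listed were found) 54.71 ± 20.97, 48.24 ± 18.73 and 122.5 ± 51.67 CPM. MiR-143 and miR-145 of stroma and smooth muscle summed to 147036 ± 46376, 116387 ± 35429 and 99625 ± 19533 CPM. The muscle miRNAs summed to 2415 ± 1455, 5394 ± 6381 and 3082 ± 3211 CPM. The part of these markers in the differences of the family was not tested.

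Canonical miR-100 was the member with the smallest p in the cycle. Its levels were 895.8, 759.3, 807.4 and 1305 CPM in CD12, 2960, 1937, 3702, 1900 and 1953 CPM in CD16, and 1032, 1092, 1986, 2352 and 3370 CPM in CD20. CD12 and CD16 did not overlap, and CD20 overlapped with both. The log2FC was 1.52 (SE 0.43) on CD16 vs CD12 and 1.05 (SE 0.43) on CD20 vs CD12, with an adjusted p of 0.1208 by the quasi-likelihood test of edgeR, 0.04575 by its likelihood ratio test, 0.04052 by DESeq2 and 0.04818 in 1 edgeR fit of all 30 libraries. MiR-100 5′ DEL 1 3′ ADD 1 (GC), which starts 1 base later and so has the seed CCCGTAG, had a log2FC of 1.56 (SE 0.52) on CD16 vs CD12 and an adjusted p of 0.1618 in edgeR. This form was rare, with 644 reads over all libraries, a mean of 8.607 CPM and 1.281 to 9.314 CPM in CD12.

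Between days of pregnancy the values went both ways. On PD16 vs PD12, 35 of 43 sequences had a positive log2FC (median 0.50, all sequences 0.05), on PD20 vs PD12 21 did (median -0.03, all sequences -0.01), and on PD20 vs PD16 36 were lower (median -0.55, all sequences -0.06). The smallest p was that of the 3p arm 3′ ADD 1, whose levels were 80.69, 133.7, 54.51, 74.59 and 107.1 CPM in PD12, 106.9, 71.34, 81.55, 65.9 and 73.75 CPM in PD16 and 36.26 to 59.73 CPM (median 54.33) in PD20. The PD20 libraries lay below all of PD16 and overlapped with 1 of PD12. The log2FC on PD20 vs PD12 was -0.80 (SE 0.28, adjusted p = 0.1965 in the joint edgeR test) and on PD20 vs PD16 -0.70 (SE 0.28, adjusted p = 0.2609). MiR-100 3′ DEL 2 had a log2FC of 0.85 (SE 0.36) on PD16 vs PD12 and 0.95 (SE 0.35) on PD20 vs PD12, with an adjusted p of 0.2377 in edgeR. Marker sums also differed between PD12, PD16 and PD20. The leukocyte sum was 55.78 ± 9.99, 83.2 ± 37.39 and 110.3 ± 32.82 CPM (SD), and the erythrocyte sum 1199 ± 426, 1421 ± 1217 and 2190 ± 1177. MiR-143 and miR-145 summed to 105057 ± 21822, 77816 ± 12780 and 192336 ± 218769 CPM. This PD20 mean was raised by replicate 1, at 636004 CPM where the median of all libraries was 103373. The part of these markers was not tested. On CD20 vs CD16, 35 of 43 sequences were lower (median -0.41, all sequences -0.03), and the 3p arm had the smallest p of the arms (log2FC -0.70, SE 0.37, adjusted p = 0.258 in edgeR).

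Against cyclic animals of the same day, the pregnant endometrium had lower values of the miR-99 seed group on D16. On PD16 vs CD16 the log2FC was -1.09 for miR-99a (SE 0.54, 95% interval -2.24 to 0.07, adjusted p = 0.542 in edgeR), -0.88 for miR-99b (SE 0.40, 95% interval -1.73 to -0.03, adjusted p = 0.4958) and -0.70 for miR-100 (SE 0.49, adjusted p = 0.7114). PD16 replicate 1, the library with the highest miR-99a, miR-100 and miR-99b of its group, made these differences smaller. Each of the 10 libraries was left out in turn, which gave 0 to 3 arms and 0 to 6 sequences of the family called. Calls came only without PD16 replicate 1. Without it the log2FC values were -1.91, -1.33 and -1.54 for miR-99a, miR-99b and miR-100, with adjusted p of 0.02468, 0.04648 and 0.02468 in edgeR, and 6 sequences and 3 arms of the family were called, among 36 of 872 sequences and 9 of 236 arms in all. With library size from all deposited reads the log2FC values of all libraries were -0.82, -0.57 and -0.43 in the same order, and 3 of the 6 arms were lower, where all 6 were lower under TMM and 4 under RLE. MiR-143 and miR-145 of stroma and smooth muscle summed to 77816 ± 12780 CPM (SD, n = 5) on PD16 and 116387 ± 35429 (n = 5) on CD16, and the epithelial sum was 12641 ± 2264 and 12826 ± 3477 CPM. The leukocyte sum was 83.2 ± 37.39 CPM on PD16 and 48.24 ± 18.73 on CD16, and the muscle sum 2474.5 ± 1152.4 and 5394 ± 6381 CPM. The part of these markers in the differences was not tested. MiR-99b 5′ DEL 1 had the smallest p of the sequences on that day (log2FC -0.98, adjusted p = 0.4116 in edgeR). On D12 the differences were small beside their SE, with log2FC of 0.23 for miR-99a (SE 0.70), -0.27 for miR-100 (SE 0.62, and 0.17 with library size from all deposited reads) and 0.33 for miR-99b (SE 0.57).

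On PD20 vs CD20, 34 of 43 sequences were lower (median -0.34, all sequences -0.03). The smallest p was that of miR-100 3′ ADD 1 (GG), a form whose name comes from cow and primate hairpins, with 24.24, 11.28, 29.79, 6.126 and 13.81 CPM in CD20 and 2.493 to 15.1 CPM (median 4.499) in PD20. The groups overlapped, and the log2FC was -1.48 (SE 0.52, adjusted p = 0.08573 in edgeR). Canonical miR-99a had 1397, 539.3, 686.6, 291.8 and 336.1 CPM in CD20 and 235.6 to 462.1 CPM (median 287.9) in PD20, with a log2FC of -1.03 (SE 0.41, adjusted p = 0.1137 in edgeR). PD20 replicate 4 held the highest miR-99a of its group by a wide gap, and without it 6 of the 43 sequences were called on this comparison, among 116 of 873 sequences in all. With each of the 11 libraries left out in turn, 0 to 6 were called. The epithelial sum was 10314.5 ± 2404.5 CPM (SD) in PD20, from implantation sites, and 7733 ± 2236 in CD20. MiR-143 and miR-145 summed to 192336 ± 218769 and 99625 ± 19533 CPM, and the erythrocyte miRNAs to 2190 ± 1177 and 1076 ± 618. The first of these PD20 means was raised by replicate 1, at 636004 CPM where the median of all libraries was 103373. MiR-126 was at 3913 ± 606 and 4604 ± 293 CPM. The part of these markers and of the site was not tested. Whether the difference between pregnant and cyclic animals changed from day to day was tested as an interaction, and none of 147 such tests of the family passed (smallest adjusted p 0.2238 in edgeR, 7 with an unadjusted p under 0.05).

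**Figure D2:**
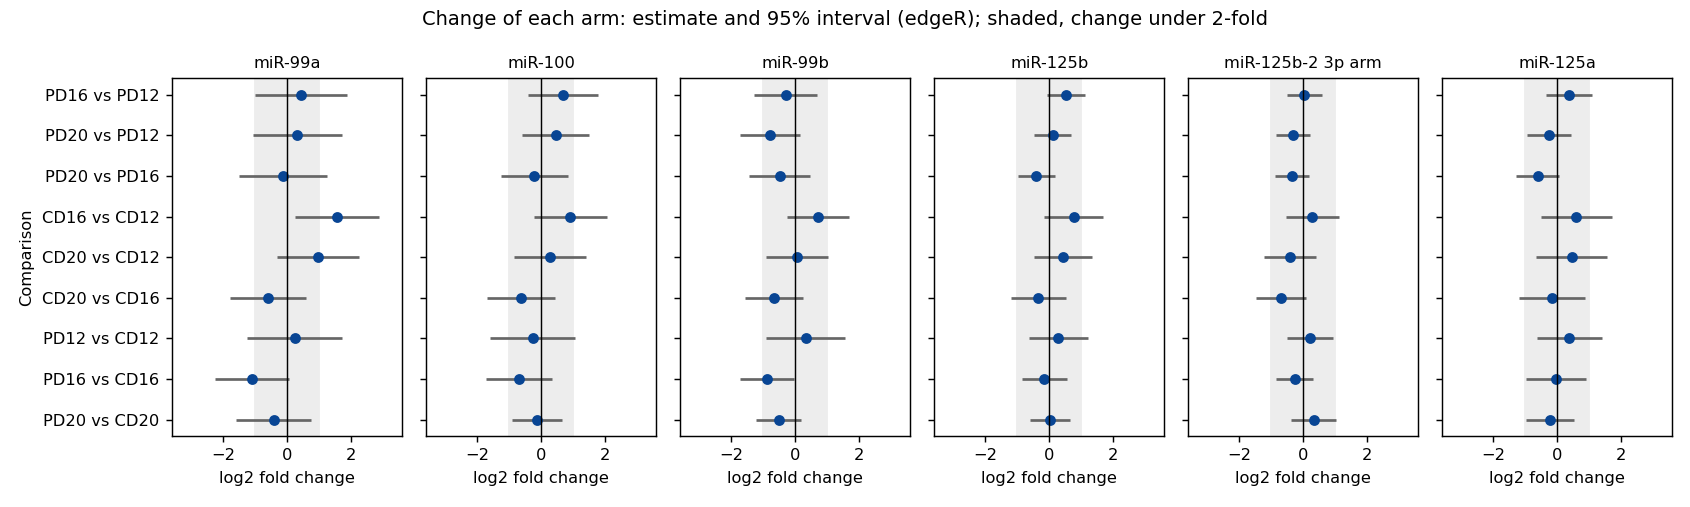
Log2FC of the 6 arms in 9 contrasts, with 95% intervals from edgeR and the band of absolute log2FC under 1 shaded. The largest value is that of miR-99a on CD16 vs CD12 (1.55), and the intervals of miR-99a and miR-100 are wider than those of the 3p arm.

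The neighbours of the family, 8 arms of let-7 and miR-98 (let-7a, c, d, e, f, g, i and miR-98), were tested in the same way. By the quasi-likelihood test of edgeR 0 of 8 were called in each of the 7 comparisons, with 1, 2, 0, 2, 0, 1 and 1 at an unadjusted p under 0.05, in the order given above. The likelihood ratio test called 1 and DESeq2 2 of them in CD16 and CD20 vs CD12 (among 27 and 29 of all 237 arms), and each called 1 in CD20 vs CD16 (among 22 and 29) and 0 in the other comparisons. The smallest adjusted p was that of let-7i on CD20 vs CD16 (log2FC -1.16, SE 0.38, adjusted p = 0.07815 in edgeR). Of the cluster neighbours, let-7a had a log2FC of 1.27 (SE 0.47) on CD16 vs CD12 and let-7c 0.95 (SE 0.45), beside 1.55 for miR-99a. Let-7e, which lies beside miR-99b, had a log2FC of -0.41 (SE 0.37) in that contrast, where miR-99b had 0.71.

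The second question was whether members of a host cluster moved together from animal to animal. The log2 level of each arm was centred on its group mean, so that differences between groups play no part, and pairs were correlated over the 30 libraries with a permutation test of 100000 resamples. In none of the 3 clusters did the miR-99 or miR-100 member follow its miR-125 neighbour. Pearson's r was -0.20 (95% interval -0.55 to 0.21, Spearman's rho -0.15, p = 0.3585, adjusted p = 0.4609) for miR-99a and the 3p arm of miR-125b-2. It was 0.09 (95% interval -0.32 to 0.47, adjusted p = 0.7161) for miR-100 and miR-125b, and -0.13 (95% interval -0.50 to 0.28, rho -0.09, p = 0.5717, adjusted p = 0.6431) for miR-99b and miR-125a. The intervals reach to moderate correlations in either direction, so an absence of any relation is not shown. When every deposited read that holds the core bases of an arm was counted, listed or not, these r were -0.18, 0.41 (adjusted p = 0.1538) and 0.43 (adjusted p = 0.09355).

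Of the 9 same-cluster pairs, only let-7e with miR-125a passed, with an r of 0.56 (95% interval 0.21 to 0.78, rho 0.54, permutation p = 0.00223, adjusted p = 0.02007). Without PD16 replicate 1 its adjusted p was 0.05643. MiR-125a and let-7c, of different host clusters, had an r of 0.53. MiR-125b and let-7c had 0.48, a pair that cannot be placed since 1 copy of miR-125b lies with let-7c. Let-7c with the 3p arm (r = 0.44, adjusted p = 0.09715) and let-7a with miR-125b (r = 0.39, adjusted p = 0.1521) pointed the same way without passing. MiR-99b and let-7e had an r of -0.41 (95% interval -0.69 to -0.02, rho -0.25, p = 0.03389, adjusted p = 0.1017), miR-99a and let-7c -0.27 (adjusted p = 0.2325) and miR-100 and let-7a 0.21 (adjusted p = 0.2782). The negative r of let-7e was not particular to its own cluster: it was -0.51 with miR-99a and -0.48 with miR-100, both of other clusters. Without the 3 libraries that stood apart, let-7e and miR-125a had an r of 0.62, let-7c and the 3p arm 0.48 (adjusted p = 0.04509), and miR-99b and let-7e -0.49 (adjusted p = 0.04509). Among subsets of libraries by the number in the sample title the r of a same-cluster pair could change sign, as for miR-99b and let-7e (0.91, -0.64 and -0.50 in 8, 12 and 10 libraries).

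Over the 30 libraries, the 4 pairs of the family that share a seed but lie in different host clusters had r between 0.69 and 0.90. They were added after the levels had been seen, so they are a description with no test, and whether they differ from the same-cluster pairs was not tested. The r was 0.90 for miR-99a and miR-100 (95% interval 0.78 to 0.95, rho 0.83), 0.90 for miR-99a and miR-99b (0.77 to 0.95, rho 0.84) and 0.90 for miR-100 and miR-99b (0.78 to 0.95, rho 0.82). MiR-125b and miR-125a had an r of 0.69 (95% interval 0.40 to 0.85, rho 0.63). Without the 2 libraries farthest from the median, r was 0.88, 0.87, 0.87 and 0.67 for these pairs, and without the 3 libraries that stood apart it was 0.92, 0.90, 0.91 and 0.69. With every deposited read that holds the core it was 0.89, 0.68, 0.63 and 0.55. In the 3 subsets by title number the pairs of the miR-99 group had r of 0.5187 to 0.9557, and miR-125b with miR-125a had -0.4511, 0.3542 and 0.8737 in 8, 12 and 10 libraries. Arms of other seeds came close, such as miR-96 with miR-99a (r = 0.86). The let-7 neighbours also share a seed across these clusters, and not all of their pairs moved together. The r was 0.69 for let-7c and let-7a, 0.36 for let-7c and let-7e and -0.04 for let-7a and let-7e.

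**Figure D3:**
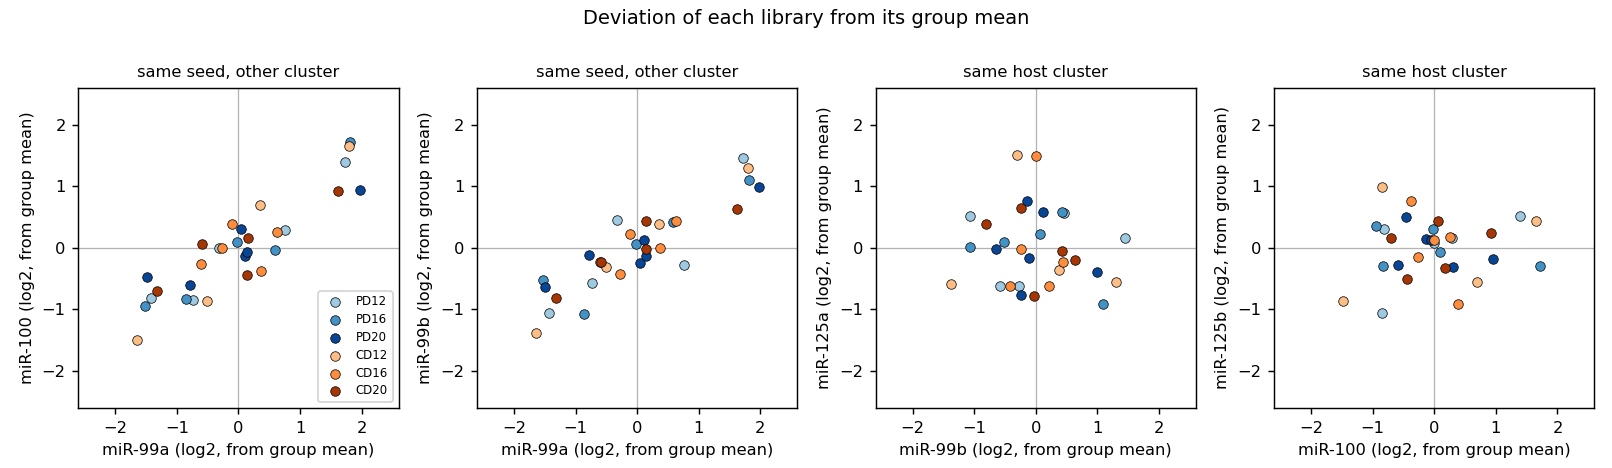
Deviation of log2 CPM from the group mean in the 30 libraries for 4 pairs of arms, with a point per library. The points of miR-99a and miR-100 lie along a line (r = 0.90), and those of the same-cluster pairs do not (r = -0.13 for miR-99b and miR-125a).

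In several groups 1 animal carried all 3 arms of the miR-99 seed group at their highest. PD16 replicate 1 had the highest miR-99a, miR-100 and miR-99b of PD16 (43584, 33422 and 5198 CPM), PD20 replicate 4 those of PD20 (42895, 18608 and 3397 CPM) and CD12 replicate 1 those of CD12 (24422, 20611 and 5040 CPM). PD12 replicate 4 (29628, 17277 and 7287 CPM) and CD20 replicate 3 (57994, 23545 and 4515 CPM) likewise had the highest of their groups. CD12 replicate 2 had the lowest of all libraries for the 3 arms (2245, 2342 and 784.4 CPM). In CD16 the arms parted: replicate 4 had the highest miR-99a and miR-99b and replicate 3 the highest miR-100, and replicate 5 was second for miR-99a (39525 CPM) and lowest for miR-100 (14211 CPM). The miR-125 arms went along in some of these libraries and not in others. CD12 replicate 2 was also the lowest of all libraries for miR-125b (83.02 CPM) and miR-125a (67.65 CPM), whereas in PD16 replicate 1 miR-125a was the lowest of its group (110.4 CPM) and in CD12 replicate 1 it was 69.03 CPM, where the group ran from 67.65 to 293.7 CPM.

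The same division was seen sequence by sequence. Of the 30 sequences of miR-99a, miR-100 and miR-99b, 25 had an r above 0.5 with the level of miR-99a (median 0.80), 1 with miR-125b, and 0 with the 3p arm or miR-125a. A member was left out of its own arm for this. Of the 13 sequences of the miR-125 arms, 2 had an r above 0.5 with miR-99a (median 0.03), 7 with miR-125b, 7 with miR-125a and 3 with the 3p arm. Sequences of the 3p arm had r of -0.10 to 0.29 with miR-125b and -0.30 to 0.37 with miR-125a. They were thus not among those 7. The 2 above 0.5 with miR-99a were miR-125b 3′ ADD 1 (0.53) and the 3p arm 3′ ADD 1 (0.58), named here after their values were seen. The exceptions in the miR-99 group included canonical miR-100 (-0.21) and its 5′ DEL 1 form (-0.13), which did not follow miR-99a although miR-100 3′ DEL 1 did (0.89). These sequences share bases and libraries, so the values are a description and carry no test.

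**Figure D4:**
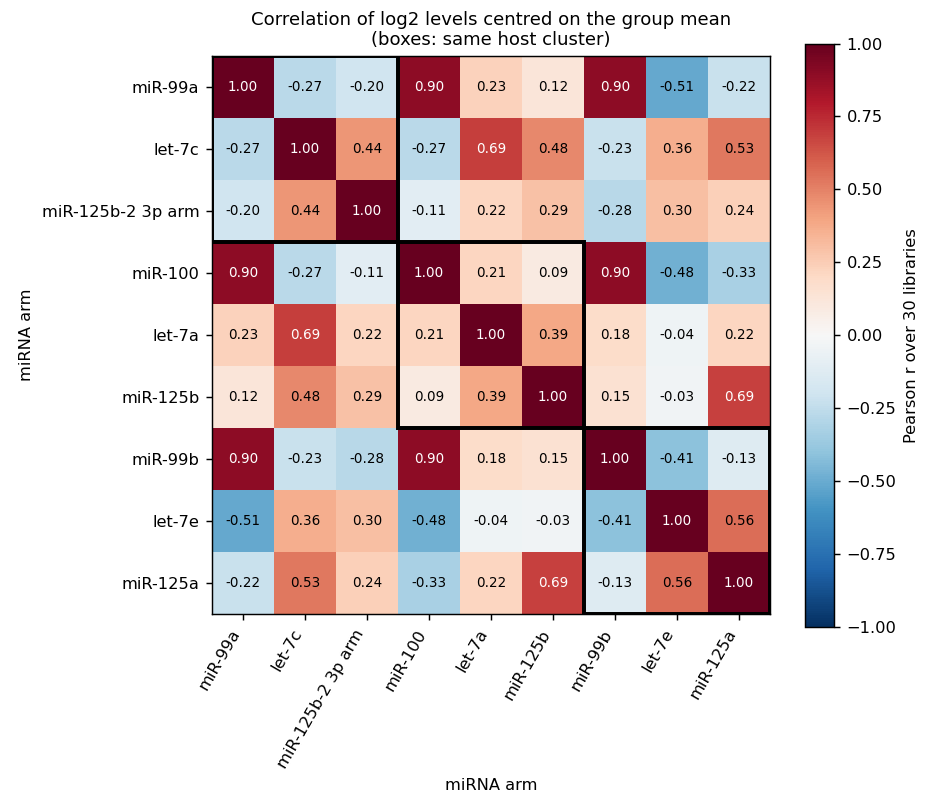
Pearson's r between 9 arms (the 6 of the family with let-7a, let-7c and let-7e) over 30 libraries, each centred on its group mean, with boxes around pairs of 1 host cluster. The 3 arms of the miR-99 seed group form a block of 0.90, and the boxed pairs run from -0.41 to 0.56.

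How far the arms parted within a library was also compared between groups. For 13 ratios (neighbours within a cluster, miR-99a to miR-100, isomiR to canonical, shifted to canonical 5′ end) 65 exact permutation tests were run over animals, and 0 passed after adjustment (smallest adjusted p 0.3369). Of these 65, 6 had an unadjusted p under 0.05. The smallest were for shifted to canonical 5′ end over CD12, CD16 and CD20 (exact p = 0.01181 for miR-99b and 0.01765 for miR-99a). For isomiR to canonical of miR-99b the exact p was 0.02073 over the same days and 0.03175 on PD12 vs CD12. The others were let-7 ratios. The log2 ratio of miR-100 to let-7a was -0.70 in PD20 and 0.40 in CD20 (difference -1.10, exact p = 0.01948), and that of miR-99b to let-7e was 1.94 in PD16 and 3.10 in CD16 (difference -1.17, exact p = 0.04762). Reads with a shifted 5′ end, and so with another seed, were rare. The median ratio of shifted to canonical ends was 0.03152 for miR-99a, 0.01264 for miR-99b and 0.007571 for miR-100.

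The make-up of miR-100 by length differed widely between libraries. The canonical form made up 4.294% of the reads of miR-100 in PD16 replicate 1 and 45.89% in PD20 replicate 1, with a median of 16.28%, and 3′ DEL 1 made up 32.06% to 78.08% (median 45.55%). The canonical share was lower where the level of miR-99a was higher (r = -0.91, rho = -0.90), and r was -0.91 without the 2 libraries farthest from the median and also without the 3 that stood apart. The 3′ DEL 1 share was higher there (r = 0.74, rho = 0.64). Canonical miR-99a made up 1.077% to 9.602% of its own arm and this share had an r of -0.68 with the level of miR-100 (rho = -0.80). The 3′ DEL 1 share of miR-99b ran from 23.48% to 52.14% (r = 0.45 with miR-99a, rho = 0.42). These relations were chosen after the data had been seen and are a description with no test. The first share is taken of the miR-100 arm, which itself had an r of 0.90 with miR-99a, while canonical miR-100 had -0.21.

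**Figure D5:**
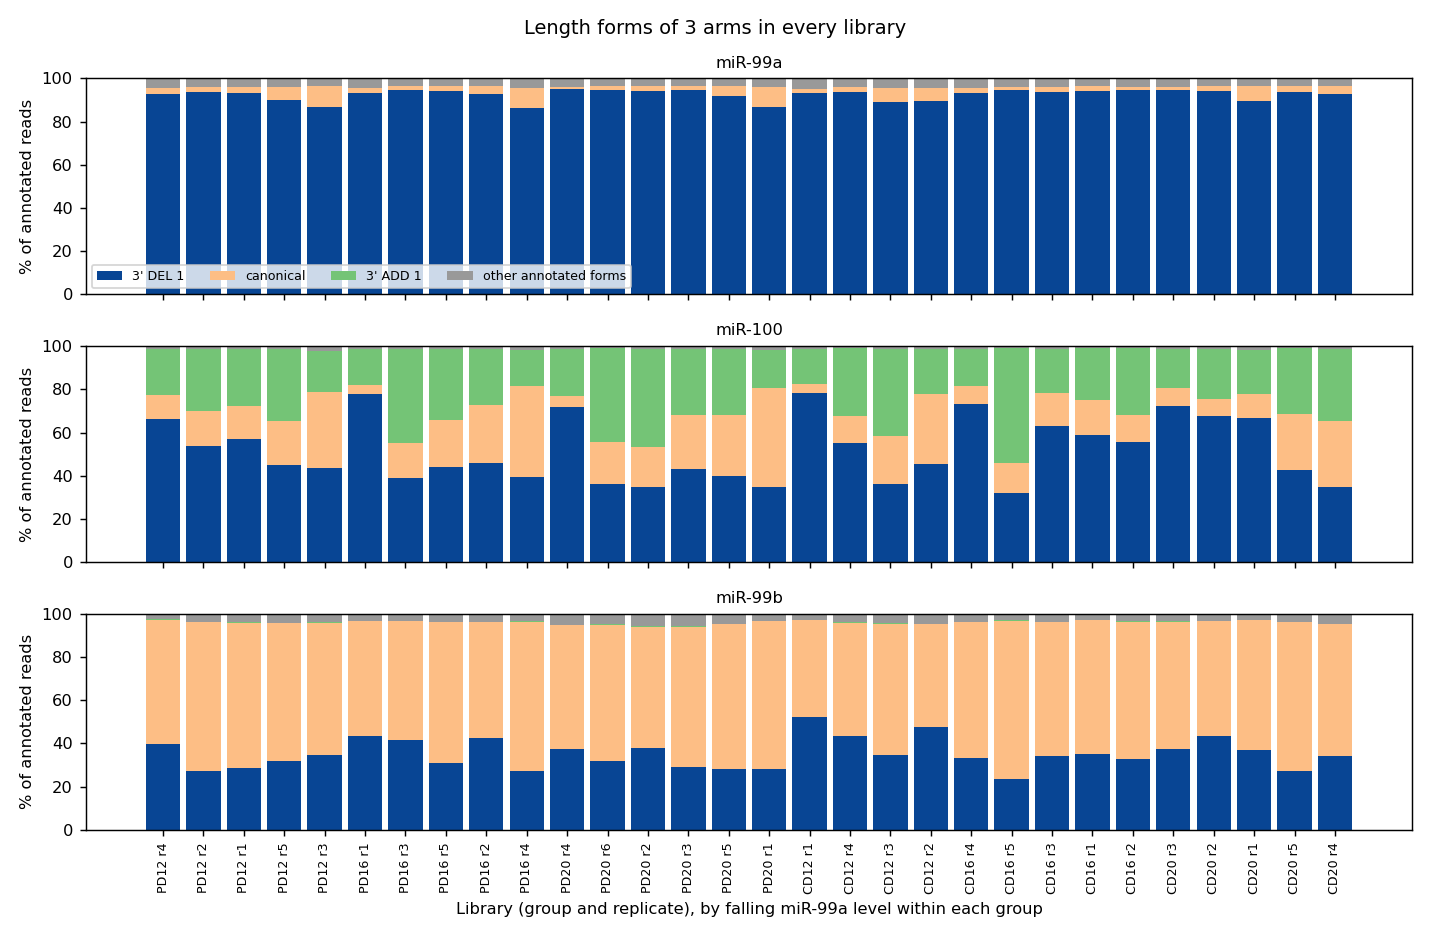
Percent of the annotated reads of miR-99a, miR-100 and miR-99b in each length form (3′ DEL 1, canonical, 3′ ADD 1, other), with a stacked bar per library. MiR-99a is nearly all 3′ DEL 1, while the canonical part of miR-100 runs from 4.294% to 45.89%.

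The level of the miR-99 seed group moved with other features of the libraries, whose part in the results above was not tested. MiR-21, the most abundant arm on average, took 18.91% to 60.33% of the annotated reads (median 34.65%), and its share had an r of -0.82, -0.83 and -0.83 with miR-99a, miR-100 and miR-99b (rho -0.78, -0.80 and -0.80, adjusted permutation p of 7.5e-05, 0.0001 and 7.5e-05 over 15 relations). MiR-21 is part of the total to which the arms are scaled. A negative r is thus built in to some degree, and a p against an r of 0 does not separate that part. With miR-21 and the family left out of the library size, the same-seed r were 0.91, 0.89, 0.88 and, for miR-125b and miR-125a, 0.82, and the pairs of miR-99a with the 3p arm, miR-100 with miR-125b and miR-99b with miR-125a had r of -0.14, 0.13 and 0.11. The GC content of the annotated reads had an r of 0.57, 0.57 and 0.65 with the 3 arms (adjusted permutation p of 0.01367, 0.0096 and 0.003487), and the share of 22-nt reads 0.45, 0.53 and 0.37 (adjusted p of 0.03658, 0.02509 and 0.1091). Both measures are taken over reads that hold the family itself, so these p values do not separate a part that is built in. The number of deposited reads had an r of -0.42, -0.27 and -0.38, none past the threshold.

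Markers of the tissue were present in all libraries. The 6 epithelial miRNAs (the miR-200 family and miR-205) were all found and summed to 4458 to 16809 CPM, with miR-200c the most abundant (5209 CPM), and miR-143 and miR-145 of stroma and smooth muscle summed to 63798 to 636004 CPM. None of the 12 relations of these sums with the 6 arms passed (smallest adjusted permutation p 0.1774, for the 3p arm and epithelium, r = 0.49, rho = 0.44). For miR-99a the r was -0.02 with the epithelial and -0.38 with the stromal sum. Among 162 arms outside the family, those whose level was most like miR-99a over the 30 libraries were miR-96 (r = 0.86) and miR-24 (r = 0.83), and those most like miR-100 were miR-10a (r = 0.82) and miR-409a (r = 0.81). MiR-99b was most like miR-409a (r = 0.81) and miR-10a (r = 0.81). At the other end stood miR-21 for miR-99a and miR-99b (r = -0.89 and -0.88) and an arm of miR-30a for miR-100 (r = -0.82).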

How the data were processed

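Small RNA of 30 endometrial libraries was prepared with the NEXTflex kit in 3 multiplex pools; the pool of each library is not given in the sources used here. Per the labels and methods, the authors joined 2 runs, kept reads whose bases all had a phred score over 20, removed adapters, dropped reads under 17 nt and collapsed identical reads. The deposited counts are whole-number raw counts per distinct sequence, neither normalised nor aligned. Reads carry no molecular identifiers, so they are not independent molecules.

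Counts were joined by exact match to the 873 sequences of the annotated list of the study, from which only names and sequences were taken. Library size was the sum of annotated reads, scaled by TMM. Counts of each sequence, and of arms (isomiRs placed by at least 12 shared bases), were fitted in edgeR 4.0.16 (R 4.3.3) with the quasi-likelihood F-test. Days were compared jointly within pregnancy and within the cycle, the layout of the ANOVA-like comparison by the authors. Pregnant and cyclic animals were compared per day as single contrasts, where the authors name a moderated t-test. The quasi-likelihood test is a choice made here, as the article does not name it. A call needed p under 0.05 after Benjamini-Hochberg adjustment and a log2FC beyond 1 in either direction. DESeq2 1.42.0, the edgeR likelihood ratio test, RLE, other library sizes, a filter of 10 CPM, blocks and leaving out each library were alternatives. Correlations used log2(CPM + 1) and ratios log2 with 0.5 reads added, in Python 3.11.15 with scipy 1.17.1, tested by two-sided permutation. Scripts were tested on simulated data. Named sequences were the canonical ones, the most abundant of each arm and those with the smallest p in a comparison. The members and all lists were chosen with earlier results of these data known. Gene neighbours were read from the RefSeq table of Sscrofa11.1 by their positions there, and no coordinates are printed.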

Additional observations from a re-analysis of the deposited data

Results flagged for a closer look

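A library whose value lay farther from its group than Dixon's 95% limit was found in 19 of 120 groups of values tested. The limit is made for normally distributed values, whereas CPM were used without a log. The arms and their own sequences were also tested side by side. The number is thus not set against a rate expected by chance. Most of these were the high miR-99 and miR-100 values of a few animals. MiR-99a stood high in PD20 replicate 4 (42895 CPM, next 12051) and CD20 replicate 3 (57994, next 20958), miR-100 in PD16 replicate 1 (33422, next 10849) and miR-99b in PD20 replicate 4 (3397, next 1861). The sequences of these arms repeated this: miR-99a 3′ DEL 1 in PD20 replicate 4 (40765) and CD20 replicate 3 (54912), miR-100 3′ DEL 1 in PD12 replicate 4 (11421), PD16 replicate 1 (25956) and PD20 replicate 4 (13402), canonical miR-99a in PD12 replicate 4 (850.6) and PD16 replicate 1 (871.5), canonical miR-99b in PD20 replicate 4 (1943), and miR-99b 3′ DEL 1 in PD12 replicate 4 (2884). MiR-125a stood high in other animals, CD12 replicate 3 (293.7, next 79.14) and CD16 replicate 5 (425.9, next 150.1), as did its 3′ DEL 1 form (178.4 and 230.5) and, in CD16 replicate 5, its canonical form (147.2). Let-7e was low in CD12 replicate 1 (520.5, next 744.7).

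The deposited files also hold reads of these miRNAs outside the annotated list, most with a changed or added last base, shown in capitals for the most abundant form of each arm.
miR-99a, last base changed: aacccgtagatccgatcttgC
miR-100 plus A: aacccgtagatccgaacttgtgA
miR-99b plus T: cacccgtagaaccgaccttgcgT
miR-125b plus A: tccctgagaccctaacttgtgaA
miR-125b-2 3p arm, last base changed: acaagtcaggctcttgggacT
miR-125a, last base changed: tccctgagaccctttaacctgC
Over all libraries they had 214935, 115645, 159986, 13893, 7244 and 1367 reads in this order. The miR-99b and miR-125b forms had more reads than any listed sequence of their arm (135144 for canonical miR-99b and 9570 for canonical miR-125b). Of all reads that hold the core of the arm, the listed sequences had 44.29% for miR-99b and 46.19% for miR-125b, against 79.92% for miR-100. The miR-99b plus T share of core reads ran from 10.65% to 49.53% and had an r of -0.69 with miR-99a (rho -0.62, a description with no test).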

How the results depend on the processing

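Counts of called members rested on the test and on single libraries. In CD16 and CD20 vs CD12, 1 member (canonical miR-100) was called by the likelihood ratio test, 1 by DESeq2 and 1 in the fit of all 30 libraries, and in PD20 vs CD20 1 (miR-100 3′ ADD 1 (GG)) by the likelihood ratio test and 1 by DESeq2. Among all sequences these fits called 79, 87 and 68 where the quasi-likelihood test called 4, and 124 and 131 where it called 13. In the other comparisons with calls the likelihood ratio test and DESeq2 called 50 and 50 (PD16 and PD20 vs PD12, 7), 21 and 15 (PD20 vs PD16, 5) and 56 and 75 (CD20 vs CD16, 4). Leaving out 1 library gave 0 to 6 members on PD16 vs CD16, 0 to 6 on PD20 vs CD20, 0 to 1 arms on CD16 and CD20 vs CD12 and 0 to 3 arms on PD16 vs CD16. The libraries were PD16 replicate 1, PD20 replicate 4 (with CD20 replicate 4 for 1 member) and CD12 replicate 1. With library size from all deposited reads the median log2FC of all sequences was between -0.27 (PD20 vs CD20) and 0.47 (CD20 vs CD12), miR-100 on PD12 vs CD12 went from -0.27 to 0.17, arms with a higher value went from 5 to 6 of 6 on CD20 vs CD12 and from 0 to 3 on PD16 vs CD16, and members and arms called stayed at 0.

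Let-7e with miR-125a had an r of 0.5262 to 0.6456 with 1 library left out (adjusted p = 0.05643 without PD16 replicate 1). Let-7c with the 3p arm had an r of 0.3516 to 0.4884 in this way, and passed with all deposited reads as library size (0.4576), without centring (0.5211), with miR-21 and the family out of the library size (0.6299) and without the 3 libraries that stood apart (0.478). Let-7a with miR-125b had 0.2863 to 0.574, and passed at 0.5321, 0.5006 and 0.5999 under the first 3 of these, miR-100 with let-7a passed at 0.3856 under the first, and miR-99b with let-7e at -0.4893 without the 3 libraries. The cause was not tested.

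Sample titles carry numbers, and within 3 runs of 12 numbers (8, 12 and 10 libraries) r was 0.5187, 0.939 and 0.9541 for miR-99a with miR-100, 0.7806, 0.9557 and 0.921 for miR-99a with miR-99b, 0.7223, 0.955 and 0.9422 for miR-100 with miR-99b, -0.4511, 0.3542 and 0.8737 for miR-125b with miR-125a, and 0.9894, 0.658 and 0.03472 for let-7e with miR-125a. Runs this small allow few arrangements (3, 6 and 4 residual degrees of freedom), so their permutation tests say little about stability, and the cause of the reversed value was not tested. Of the other same-cluster pairs, r was 0.8867, -0.04586 and 0.06555 for miR-99b with miR-125a, 0.9123, -0.6371 and -0.4987 for miR-99b with let-7e, 0.9203, 0.1451 and 0.849 for miR-100 with let-7a, 0.1812, 0.6493 and 0.1313 for miR-100 with miR-125b, -0.2465, 0.2837 and -0.2955 for miR-99a with the 3p arm and -0.8425, -0.3786 and -0.226 for miR-99a with let-7c.

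Replicate numbers do not pair the animals: libraries with the same number had a mean correlation of deviations between -0.272 and 0.2294 over pairs of groups. With the replicate block 0 members and 0 arms were called in every comparison. Depth limits the lowest members, such as miR-99b 3′ DEL 4 with 236 reads over 28 libraries.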

Other observations

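The GT and GG endings of miR-100 were listed under the names of hamster and of cow and primate hairpins, and the GC ending under the pig name. The GT form had 193119 reads over all libraries, the GC form 40713 and the GG form 837.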
